A study of Homo sapiens with 60 samples.

Results

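HT29 cells, a human colorectal adenocarcinoma line, were treated for 24 h with an ethanol extract of Poria Cocos, a medicinal fungus, or with an ethanol extract of Panax Ginseng, a medicinal root, and their RNA was sequenced. The comparison described here sets the 3 libraries of Poria at 500 µg/mL against the 3 libraries of Ginseng at 500 µg/mL, chosen by their labels, out of 60 libraries in the series. The 3 libraries of each extract at 20 µg/mL served only to show how far the same pair of extracts differed at the low dose. The 3 vehicle libraries had DMSO alone for 24 h, 0.1% by their labels and 2% by the series text. All groups share the cell line, and none carries a genetic change beyond those of the line. The labels do not say that the 3 libraries of a group came from separate cultures, so p-values cover only how far these libraries vary, and that variation may be technical.

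The sample names open with a number that is here called the set, 9 for Poria and 10 for Ginseng. The sources used here do not say what a set stands for, and within the high dose alone the extract and its set cannot be told apart. A set difference that is the same at every dose would also be present between the low dose groups. One that changes with dose need not be.

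Plant and fungal extracts hold many small molecules that epithelial cells sense as chemical stress. The transcription factor NRF2 responds to electrophiles and oxidants by switching on genes for detoxifying reductases, glutathione synthesis and iron storage. ATF4, the effector of the integrated stress response, responds to amino acid shortage and other stresses by switching on amino acid synthesis and transport. Another branch, the unfolded protein response, raises chaperones of the endoplasmic reticulum, and nuclear receptors such as PPAR alpha adjust fat burning to the supply of fatty acids.

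Total counts were 27.3 to 29.6 M in the Poria high dose libraries and 20.0 to 24.0 M in those of Ginseng, so the Poria libraries were all deeper. The mitochondrial share of counts was 6.83% to 7.55% with Poria and 7.67% to 8.09% with Ginseng at the high dose, again without overlap. On the first principal component of the 12 extract libraries, which held 17.7% of the variance, Poria low dose library 1, Ginseng high dose library 3 and Ginseng low dose library 3 lay apart from the other 9. A gene was called where edgeR's quasi-likelihood test gave a Benjamini-Hochberg adjusted p below 0.05 over all 16445 genes tested. All 12 of the epithelial markers fixed for HT29 were expressed and passed the filter on low counts. In the filtered fit of all 57 libraries edgeR called none of them (6 under an unadjusted 0.05), and DESeq2 called 1. With no filter edgeR called 2 of them, and in a fit of the 6 high dose libraries alone it called 1, all higher with Poria. With the replicate number as a block it called 1, lower with Poria. The summed level of these 12 was 13558 to 13698 CPM with Poria and 11937 to 13605 CPM with Ginseng. CPM are the rounded deposited counts per M counts of the tested genes in a library, scaled by edgeR's TMM factor for that library. Of 19 markers of leukocytes, endothelium, fibroblasts, muscle, nerve and liver, 6 passed the filter. Neither DESeq2 nor edgeR in the filtered fit of all 57 libraries called any of them (2 under an unadjusted 0.05). With no filter edgeR called 1 of them, and in a fit of the 6 high dose libraries alone also 1, in each case lower with Poria. CD3E, COL1A2 and SNAP25 were at 0 in all 6 high dose libraries. The summed level of these 19 was 1402 to 1464 CPM with Poria and 1587 to 1625 CPM with Ginseng. Nearly all of it was LYZ, a lysozyme gene that intestinal epithelium also expresses, at means of 1415 CPM and 1590 CPM. In bulk RNA, fewer cells of a type and less RNA per cell cannot be told apart.

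At 500 µg/mL few genes separated HT29 cells treated with the 2 extracts. With Poria, genes of the NRF2 response, amino acid stress genes and the cell cycle inhibitor CDKN1A were higher than with Ginseng. With Ginseng, genes of fatty acid use, the nuclear receptor gene NR0B2, endoplasmic reticulum chaperones and the stem cell receptor gene LGR5 were higher than with Poria. A gene is said to be higher or lower with Poria only where it was called. Of the 16445 genes 85 were called (0.517%), 45 higher with Poria (0.274%) and 40 lower (0.243%). Of the 85, 33 were on 1 or more of the 35 gene lists and 52 were on none.

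The differences were small. Among the 85 genes the median size of the log2 fold change was 0.27, the range was 0.15 to 0.77, and the fold between the extracts ran from 1.11 to 1.71. Only 14 of the 85 passed a log2 fold change of 0.5 in size. The libraries of the 2 groups did not overlap for any of the 85, whereas among all tested genes 17.0% had no overlap (9.02% with Poria on the higher side and 8.02% on the lower). At an unadjusted threshold of 0.05, edgeR gave 1787 genes (10.9%). Nearest to the threshold inside it were an unnamed gene (ENSG00000265690, adjusted p of 0.0461), TCF12 (0.0478) and ATF3 (0.0484), and nearest outside were CASZ1 (0.0564), ZFR (0.0566) and LGMN (0.0566).

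At the low dose no gene passed the threshold. At 20 µg/mL edgeR called 0 genes (0.0%), with 955 genes under an unadjusted 0.05 (5.81%), a smallest adjusted p of 0.143 and 1 gene called by DESeq2. Some libraries of a group differed more at this dose. The chi-square per degree of freedom between library pairs was 3.38 to 24.4 with Poria and 4.09 to 10.2 with Ginseng. At the high dose it was 2.90 to 4.55 and 3.58 to 5.21. Small differences may therefore go without a call at the low dose. The 85 genes were chosen by their high dose values, so their values at both doses are given as a description. The sign was the same at both doses for 63 of the 85, for 35 of the 45 higher with Poria and 28 of the 40 lower. The median log2 fold change was 0.32 at the high dose and 0.06 at the low dose for the genes higher with Poria, and -0.25 and -0.03 for the genes lower with Poria. At the low dose 17 of the 85 had no overlap between the extracts, and among all tested genes 9.58% had none (4.71% with Poria on the higher side and 4.86% on the lower). Across the 10720 genes with at least 5 CPM the log2 fold changes at the 2 doses had a Pearson r of 0.40. Across all 16445 tested genes it was 0.05. Both are given as a description, because genes are not independent and what the libraries of a set share is not stated.

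**Figure D1:**
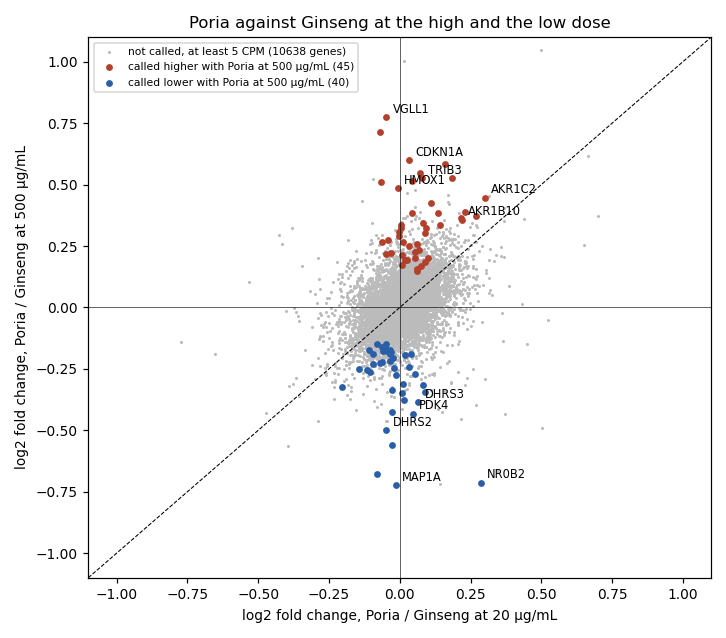
Each point is a gene with at least 5 CPM or a called gene, placed by its log2 fold change of Poria over Ginseng at 20 µg/mL (x axis) and at 500 µg/mL (y axis), with red and blue for the 45 and 40 genes called at the high dose and 12 genes beyond the axes not drawn. The called genes stretch along the y axis and lie nearer to 0 on the x axis. AKR1C2, AKR1C3, AKR1C1, AKR1B10 and COMTD1 lie to the right of the others together with NR0B2, which lies on opposite sides at the 2 doses.

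The NRF2 list held the largest block of called genes. Of its 31 tested members, 11 were higher with Poria and none was lower, and 30 had a positive log2 fold change. The list median was 0.20 at the high dose and 0.07 at the low dose, beside a median of -0.00 over all genes tested. No member was called at the low dose or in the difference between the doses. Of the called members, AKR1B10, AKR1C1, AKR1C2, AKR1C3, ALDH3A1 and TKT had Poria above Ginseng without overlap at the low dose too. The other called members overlapped there. Among all tested genes 4.71% lay so at that dose. Extract and set cannot be told apart at the low dose either. Summed over the 32 members matched, the level was 16228 to 16714 CPM with Poria and 13702 to 14429 CPM with Ginseng at the high dose, 12705 to 13159 CPM and 12026 to 12489 CPM at the low dose, and 13316 to 13660 CPM in vehicle. A large part of each sum was the ferritin gene FTH1, whose count is uncertain. Its means were 5976 CPM with Poria and 4994 CPM with Ginseng at the high dose and 5591 CPM in vehicle. The sums therefore need not follow the other members.

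The aldo-keto reductases, enzymes that reduce reactive aldehydes and ketones, stood out in both extracts. AKR1B10 (ENSG00000198074, chr7:134527592-134541408, + strand of GRCh38) was measured at 247, 237 and 231 CPM in the Poria libraries and at 191, 189 and 178 CPM in the Ginseng libraries. All 6 values lay above the vehicle libraries, whose mean was 94.9 ± 4.65 CPM (SD, n = 3), and the 2 extracts did not overlap. The log2 fold change of Poria over Ginseng was 0.36 ± 0.05 (SE; edgeR adjusted p of 7.81e-05). AKR1B10 differed in the same direction at the low dose, by 0.22 ± 0.06 (edgeR adjusted p of 0.481), with no overlap between 107, 112 and 106 CPM with Poria and 92.3, 98.7 and 88.6 CPM with Ginseng.

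The AKR1C genes lie side by side on chromosome 10 and encode close relatives, between which the authors' estimated counts divide shared reads, so their separate values are uncertain. AKR1C1 (chr10:4963253-4983283, + strand) was at 36.2, 34.8 and 36.1 CPM with Poria and 27.9, 27.0 and 26.8 CPM with Ginseng. AKR1C2 (chr10:4987400-5018031, - strand) was at 36.4, 32.4 and 35.5 CPM with Poria and 27.9, 23.5 and 25.0 CPM with Ginseng. AKR1C3 (chr10:5035354-5107686, + strand) was at 98.0, 99.1 and 103.3 CPM with Poria and 85.4, 68.9 and 77.7 CPM with Ginseng. For all of them both extracts lay above every vehicle library, and the Poria libraries were the higher ones. The log2 fold changes were 0.39 ± 0.06 for AKR1C1 (edgeR adjusted p of 0.000122), 0.45 ± 0.07 for AKR1C2 (0.000145) and 0.37 ± 0.08 for AKR1C3 (0.0138). At the low dose they were 0.23, 0.30 and 0.27, without overlap between the extracts and without a call (edgeR adjusted p of 0.651, 0.63 and 0.704). For these 3 genes and AKR1B10 the difference between the high and the low dose comparison was 0.10 to 0.16 and was not called.

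HMOX1, the haem-degrading oxygenase, followed another course over dose. Its libraries were at 20.4, 18.1 and 19.4 CPM with Poria and 13.9, 13.6 and 13.9 CPM with Ginseng at the high dose. At the low dose both extracts had a mean of 11.0 CPM, and vehicle had 11.0 ± 0.59 CPM (SD, n = 3). The log2 fold change was 0.48 ± 0.08 at the high dose (edgeR adjusted p of 0.00078) and -0.01 ± 0.09 at the low dose. The difference between these was 0.49 ± 0.13 and did not pass the threshold (edgeR adjusted p of 0.273).

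NQO1, a quinone reductase, was at 698, 711 and 712 CPM with Poria and 626, 590 and 598 CPM with Ginseng, against 468 ± 26.9 CPM in vehicle (SD, n = 3). The Poria libraries again lay above all the Ginseng libraries, by a log2 fold change of 0.23 ± 0.04 (edgeR adjusted p of 0.000297). ALDH3A1, an aldehyde dehydrogenase, was at 57.4, 55.8 and 57.6 CPM with Poria and 45.6, 44.2 and 40.9 CPM with Ginseng, a log2 fold change of 0.38 ± 0.05 (edgeR adjusted p of 2.26e-06). NQO1 and ALDH3A1 are also on the list of targets of the aryl hydrocarbon receptor, a sensor of aromatic ligands. That list also includes CYP1B1, an oxidising enzyme at 71.1, 67.1 and 72.6 CPM with Poria and 56.5, 53.2 and 57.3 CPM with Ginseng, and 3 of its 9 tested members were called, all higher with Poria. Vehicle library 1 had 88.8 CPM of CYP1B1, above both extracts. CYP1B1 was not called without any 1 of the 6 high dose libraries, after thinning to equal totals or with the 3 libraries that lay apart left out (edgeR adjusted p up to 0.179). CYP1A1, the receptor's best known target, was at means of 2.15 CPM with Poria and 1.28 CPM with Ginseng, with a log2 fold change of 0.74 ± 0.36 that was not called (edgeR adjusted p of 0.443).

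The other called NRF2 genes are named to complete the list, after their values were seen. FTH1, the heavy chain of ferritin, which stores iron, was at 6106, 5771 and 6050 CPM with Poria and 4812, 5046 and 5124 CPM with Ginseng, a log2 fold change of 0.26 ± 0.04 (edgeR adjusted p of 0.000145). Its many processed pseudogenes make its count uncertain. In vehicle FTH1 was at 5387 to 5737 CPM, so Ginseng lay below vehicle for this gene and Poria above it. TXNRD1, thioredoxin reductase, was at 541, 493 and 508 CPM with Poria and 447, 402 and 402 CPM with Ginseng. TKT, transketolase of the pentose phosphate pathway, had 781, 786 and 798 CPM with Poria and 681, 754 and 671 CPM with Ginseng. TRIM16L, a gene with a near-identical relative and therefore uncertain, had 17.9, 16.8 and 17.3 CPM with Poria and 14.2, 13.1 and 13.7 CPM with Ginseng. Their log2 fold changes were 0.30, 0.17 and 0.34.

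All but 1 of the members without a call had a positive value. GCLM and GCLC, the subunits of the enzyme that limits glutathione synthesis, had log2 fold changes of 0.24 ± 0.06 (edgeR adjusted p of 0.0633) and 0.20 ± 0.07 (0.218). SLC7A11, the cystine importer, had 0.22 ± 0.07 (edgeR adjusted p of 0.125), and FTL, the ferritin light chain, had 0.30 ± 0.09 (0.12). ABCC3, a conjugate exporter, was the member with a negative value, -0.03 ± 0.05. Of the 11 called genes, NQO1, FTH1, AKR1B10, ALDH3A1, AKR1C1, AKR1C2 and HMOX1 were called under all 14 alternatives tried. AKR1C3, TXNRD1 and TKT were not called without Poria library 3, without Ginseng library 3 or with the 3 libraries that lay apart left out, with edgeR adjusted p up to 0.149, 0.182 and 0.197, and TRIM16L was not called without Ginseng library 2 (0.0581).

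**Figure D2:**
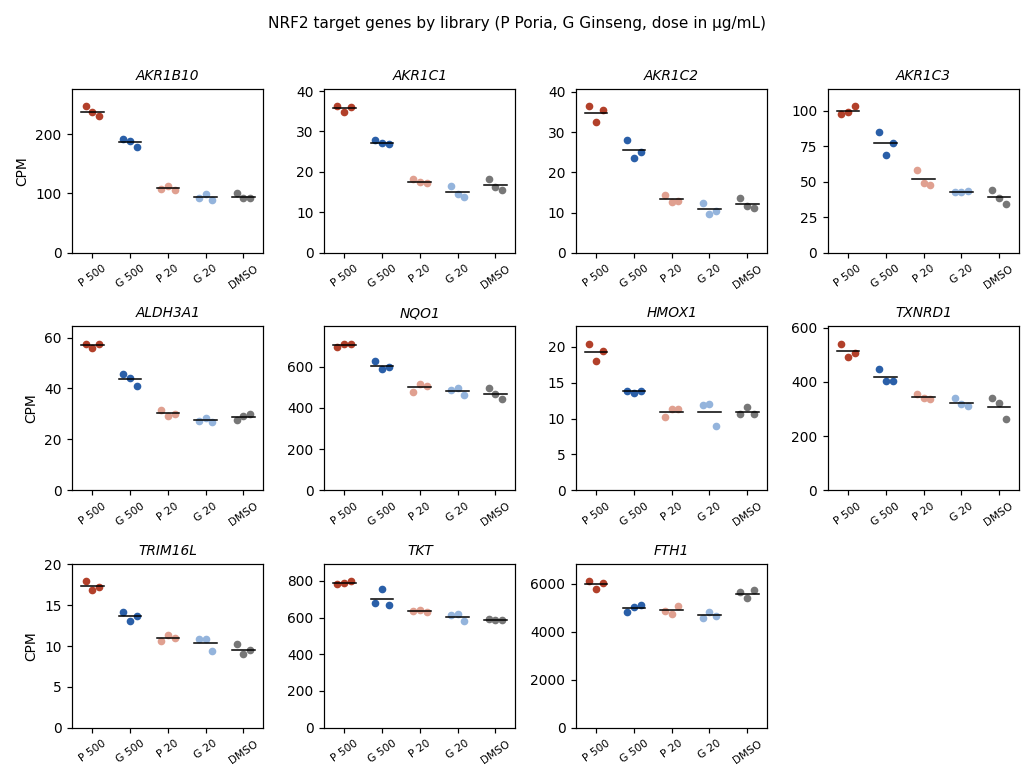
CPM (y axis, from 0) of the 11 called NRF2 target genes in each library of Poria (P) and Ginseng (G) at 500 and 20 µg/mL and of vehicle (DMSO), with a bar at the mean of each group of 3. In every panel the 3 Poria points at 500 µg/mL sit above the 3 Ginseng points, and in all panels but FTH1 both groups sit above vehicle.

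NRF2 binds antioxidant response elements, whose core is written here as TGACNNNGC. This core was searched on both strands in the bases before the start in RefSeq promoter windows of GRCh38.p14, where it was found in 10.9% of 35116 windows. Of the 85 called genes 63 had a window, and 10 of them held the core, 5 higher with Poria and 5 lower. A gene was counted if any of its windows held the core, so this count and the share of single windows are unlike measures. TXNRD1 and SLC3A2 are shown because they are the only called members of the NRF2 and ATF4 lists found to hold it. Capitals mark the match. It begins 99 bases before 1 of the TXNRD1 starts (chr12:104215654-104215713, + strand) and 37 bases before the start for SLC3A2 (chr11:62881636-62881695, + strand). Another TXNRD1 window (chr12:104286904-104286963, + strand), not shown, holds a match on the opposite strand, 102 bases before its start. A match of letters is a description and not a binding site.
TXNRD1: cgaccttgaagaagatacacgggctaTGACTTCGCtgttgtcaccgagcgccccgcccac
SLC3A2: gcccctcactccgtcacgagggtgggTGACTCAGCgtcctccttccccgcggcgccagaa

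Genes of the amino acid stress response were the second block higher with Poria. Of the 23 tested members of the ATF4 list, 4 were higher with Poria and none was lower, and 22 had a positive log2 fold change. The list median was 0.16 at the high dose and 0.07 at the low dose. TRIB3, a pseudokinase that restrains ATF4, had the smallest adjusted p of all genes. TRIB3 (ENSG00000101255, chr20:362835-397559, + strand) was at 45.4, 47.7 and 47.4 CPM with Poria and 34.4, 30.7 and 32.3 CPM with Ginseng. The Ginseng values lay around those of vehicle, 32.9 ± 0.88 CPM (SD, n = 3), and the Poria values lay above every library of the other 4 groups. The log2 fold change was 0.53 ± 0.06 at the high dose (edgeR adjusted p of 3.57e-07) and 0.08 ± 0.06 at the low dose (0.883). The difference between the doses was called, at 0.45 ± 0.09 (edgeR adjusted p of 0.0156).

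ASNS, asparagine synthetase, was at 58.5, 63.3 and 64.8 CPM with Poria and 53.7, 51.9 and 51.1 CPM with Ginseng, a log2 fold change of 0.25 ± 0.05 (edgeR adjusted p of 0.00195). The Ginseng libraries were near the vehicle mean of 52.3 CPM. SLC3A2, the heavy chain shared by several amino acid transporters, was at 189, 177 and 184 CPM with Poria and 163, 155 and 148 CPM with Ginseng, against 117 ± 12.6 CPM in vehicle (SD, n = 3). Here both extracts lay above vehicle and Poria lay higher, by a log2 fold change of 0.24 ± 0.06 (edgeR adjusted p of 0.0284). ATF3, a stress transcription factor that is also on the immediate early list, was low in all libraries, at 3.29, 3.20 and 4.01 CPM with Poria and 2.14, 2.67 and 2.49 CPM with Ginseng. Its log2 fold change of 0.53 ± 0.13 was just within the threshold (edgeR adjusted p of 0.0484). DESeq2 gave ATF3 no adjusted p. Of the 13 other alternatives, 2 kept the call, with edgeR adjusted p up to 0.314. SLC3A2 was not called without any 1 of 5 libraries (Poria 1, 2 or 3, Ginseng 2 or 3) or with the 3 libraries that lay apart left out, with adjusted p up to 0.216. ATF4 itself had a log2 fold change of 0.07 ± 0.05, and DDIT3, which encodes the factor CHOP, had 0.33 ± 0.12 (edgeR adjusted p of 0.279).

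ATF4 acts through composite elements whose core is written here as TGATGNAA. In the promoter windows it was present in 3.14% of the 35116, and in 5 of the 63 called genes with a window, 2 higher with Poria and 3 lower. Here too genes with a match in any window were counted, which is unlike the share of single windows. ASNS and ATF3 are shown because they are the called members of the ATF4 list that hold it, with the match in capitals. It begins 68 bases before the ASNS start (chr7:97872443-97872502, - strand) and 191 bases before 1 of the ATF3 starts (chr1:212565190-212565249, + strand).
ASNS: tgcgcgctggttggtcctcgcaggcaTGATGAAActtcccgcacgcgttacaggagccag
ATF3: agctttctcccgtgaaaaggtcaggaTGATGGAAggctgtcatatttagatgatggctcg

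Few genes of the p53 list differed, and the activity of p53 was not tested. Of 20 tested members of the p53 list, CDKN1A and GDF15 were called, both higher with Poria, and the list median was 0.07. CDKN1A, the p21 inhibitor of cyclin-dependent kinases (ENSG00000124762, chr6:36676460-36687339, + strand), was at 21.4, 18 and 19.1 CPM with Poria and 13.3, 14.1 and 11.1 CPM with Ginseng. The Poria libraries lay above and the Ginseng libraries below all vehicle libraries, which had 14.4 to 15.4 CPM. The extracts differed by a log2 fold change of 0.60 ± 0.08 (edgeR adjusted p of 2.31e-05) at the high dose and 0.03 ± 0.08 at the low dose, and their difference was called at 0.57 ± 0.12 (0.0422). GDF15, a secreted stress hormone, was at 61.4, 60.8 and 59.1 CPM with Poria and 48.2, 45.8 and 45.0 CPM with Ginseng, a log2 fold change of 0.38 ± 0.08 (edgeR adjusted p of 0.00453). MDM2 and BAX, which p53 also induces, had log2 fold changes of -0.07 ± 0.06 and 0.08 ± 0.05 without a call. None of the 36 genes of DNA replication and the G1/S step and none of the 28 genes of mitosis was called by edgeR. Their medians were 0.01 and -0.02, and 0 and 5 of them were under an unadjusted 0.05. With no filter on low counts 2 mitosis genes were called, and 1 in a fit of the 6 libraries alone, all lower with Poria.

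Few sterol genes differed. Of 25 tested members of the cholesterol synthesis list 2 were called, both higher with Poria, and the list median was 0.06. LSS, lanosterol synthase, was at 133, 134 and 128 CPM with Poria and 123, 117 and 116 CPM with Ginseng, a log2 fold change of 0.15 ± 0.03 (edgeR adjusted p of 0.021). SQLE, squalene epoxidase, was among the 23 members without a call, with -0.01 ± 0.07. LSS was not called in 7 of the 14 alternatives, among them those without Poria library 1 or 2, or without Ginseng library 2 or 3, with adjusted p up to 0.172.

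**Figure D3:**
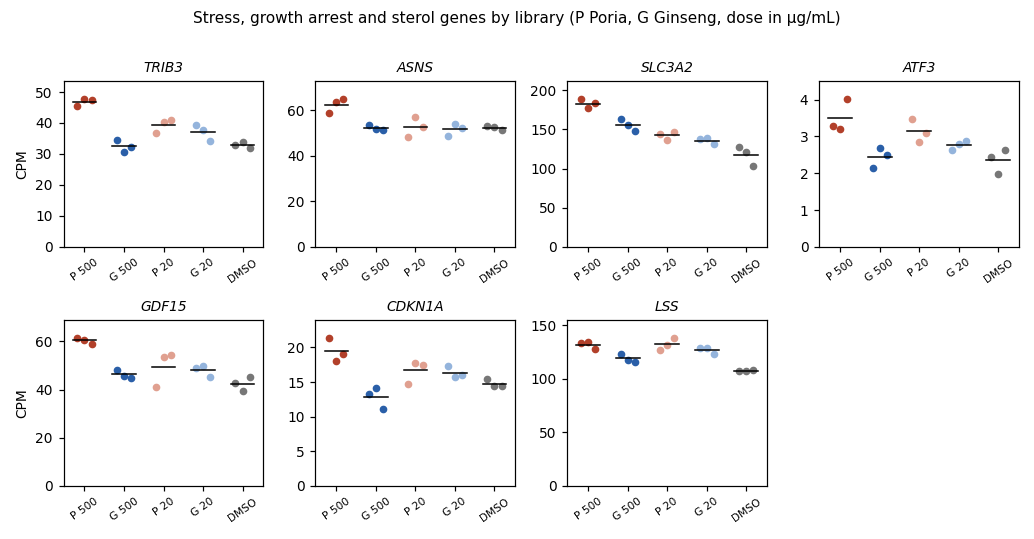
CPM (y axis, from 0) of 4 ATF4 list genes, GDF15, CDKN1A and LSS in each library, with groups and mean bars as in the plot of NRF2 genes. Poria at 500 µg/mL sits above Ginseng at 500 µg/mL in all 7 panels, and for CDKN1A the Poria points (18 to 21.4 CPM) lie above and the Ginseng points (11.1 to 14.1 CPM) below those of vehicle.

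Single genes of other fixed lists were also higher with Poria. SLC2A1, the glucose transporter GLUT1, and ALDOC, an aldolase, were the called members among 24 tested hypoxia and glycolysis genes, with log2 fold changes of 0.20 ± 0.04 (edgeR adjusted p of 0.0122) and 0.31 ± 0.07 (0.0242). DUSP5, a phosphatase that turns off ERK, was at 6.43, 6.43 and 5.82 CPM with Poria and 4.28, 4.14 and 4.72 CPM with Ginseng, a log2 fold change of 0.51 ± 0.13 (edgeR adjusted p of 0.0423). It was the called member among 18 genes of MAPK feedback. NEU1, a lysosomal sialidase, was the called member among 25 autophagy and lysosome genes, with 0.19 ± 0.05 (edgeR adjusted p of 0.0328). VGLL1, a cofactor of TEAD factors, had the largest log2 fold change among the called genes, 0.77 ± 0.16 (edgeR adjusted p of 0.00569). It was at 3.29, 4.02 and 3.72 CPM with Poria and 2.10, 2.02 and 2.34 CPM with Ginseng. All these values of VGLL1 lay below vehicle, 4.43 to 6.61 CPM, and it was the called member among 13 tested YAP and TEAD genes. VGLL1 was not called without Poria library 2 (edgeR adjusted p of 0.0622), and SLC2A1, ALDOC, DUSP5 and NEU1 were not called in 5 to 8 of the 14 alternatives, without Poria library 1 or 2 in each case, with adjusted p up to 0.149, 0.206, 0.165 and 0.359.

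The remaining genes named by size were of mixed kind. CCL15, a chemokine gene, was at 16.6, 15.9 and 19.4 CPM with Poria and 12.2, 9.69 and 12.7 CPM with Ginseng, a log2 fold change of 0.58 ± 0.13 (edgeR adjusted p of 0.0139). PDZK1IP1, which encodes a small membrane protein of epithelia, was at 10.9, 10.5 and 10.2 CPM with Poria and 7.17, 7.32 and 7.66 CPM with Ginseng. Its log2 fold change was 0.51 ± 0.10 (edgeR adjusted p of 0.00566). For PDZK1IP1 the Poria libraries lay within the range of vehicle (9.73 to 11.6 CPM) and the Ginseng libraries below it. LINC03040 (log2 fold change of 0.55) likewise lay below vehicle in the Ginseng libraries alone, and SLC6A20, an amino acid transporter gene (0.42), lay below vehicle in all 6 libraries. COMTD1, a methyltransferase-like gene, had a log2 fold change of 0.36 and was at 10.0 to 11.5 CPM with Poria and 8.06 to 8.78 CPM with Ginseng. RAP1GAP, which switches off the small GTPase RAP1 (ENSG00000076864, chr1:21596215-21669363, - strand), was at 91.6, 93.7 and 93.8 CPM with Poria and 71.3, 78.3 and 71.5 CPM with Ginseng. The low dose means of RAP1GAP were 91.6 and 91.3 CPM, and vehicle was at 79.6 to 85.9 CPM, between the 2 high dose groups. Its log2 fold change was 0.34 ± 0.05 at the high dose (edgeR adjusted p of 1.29e-05), and the difference between the doses was called at 0.33 ± 0.06 (0.0179). CCL15 was not called without Poria library 3 or without Ginseng library 2, PDZK1IP1 was not called without Ginseng library 1, and LINC03040, SLC6A20 and COMTD1 were not called with the 3 libraries that lay apart left out, with edgeR adjusted p over all alternatives up to 0.16, 0.0512, 0.0636, 0.199 and 0.24.

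Some genes of fatty acid use were lower with Poria, or, put the other way, higher with Ginseng. Of 13 tested PPAR targets, 3 were lower with Poria and none was higher, 9 had a negative log2 fold change, and the median was -0.12 at the high dose and -0.01 at the low dose. PDK4, a kinase that keeps pyruvate out of the mitochondrial cycle, was at 5.75, 5.68 and 4.97 CPM with Poria and 7.59, 7.11 and 7.46 CPM with Ginseng, a log2 fold change of -0.43 ± 0.10 (edgeR adjusted p of 0.035). ACADVL, the first dehydrogenase of long chain fatty acid oxidation, was at 183, 183 and 179 CPM with Poria and 207, 212 and 197 CPM with Ginseng, and its log2 fold change was -0.18 ± 0.04 (edgeR adjusted p of 0.0104). For ACADVL both groups lay above vehicle, at 147 ± 1.03 CPM (SD, n = 3). CPT1A, the carnitine transferase that gates fatty acid entry, had 0.02 ± 0.05 and was not called. PDK4 was not called without any 1 of the 6 high dose libraries (adjusted p up to 0.223), and ACADVL was not called without Poria library 3 or without Ginseng library 1 or 2 (up to 0.0947).

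NR0B2, which encodes the small heterodimer partner, a repressor in bile acid feedback (ENSG00000131910, chr1:26911489-26913966, - strand), had the largest difference between the doses among the 9 genes called in that test. It was at 3.68, 4.05 and 3.46 CPM with Poria and 6.04, 5.45 and 6.91 CPM with Ginseng at 500 µg/mL. At 20 µg/mL the order was opposite, 5.38, 5.42 and 5.37 CPM with Poria and 3.93, 4.48 and 4.91 CPM with Ginseng, again without overlap. The log2 fold change was -0.71 ± 0.13 at the high dose (edgeR adjusted p of 0.00214) and 0.29 ± 0.14 at the low dose (0.834), and the difference between them was called at -1.0 ± 0.19 (0.0156). Without Ginseng high dose library 3 the high dose difference of NR0B2 was no longer called, and with the 3 libraries that lay apart left out it was -0.62 (edgeR adjusted p of 0.0528).

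A pair of endoplasmic reticulum chaperones was lower with Poria. Of 20 tested genes of the unfolded protein response, HSPA5 and HSP90B1 were called, both lower with Poria, and the list median was -0.05. DESeq2 called 5 members, all lower with Poria. HSPA5, the chaperone BiP, was at 442, 437 and 453 CPM with Poria and 529, 502 and 485 CPM with Ginseng, against 419 ± 21.3 CPM in vehicle (SD, n = 3). HSP90B1, the chaperone GRP94, was at 704, 676 and 698 CPM with Poria and 783, 806 and 762 CPM with Ginseng, against 707 ± 6.49 CPM in vehicle (SD, n = 3). The Ginseng libraries lay above every vehicle library for both genes. The log2 fold changes were -0.19 ± 0.04 for HSPA5 (edgeR adjusted p of 0.0145) and -0.18 ± 0.03 for HSP90B1 (0.00192). Calreticulin (CALR) had -0.12 ± 0.03 (edgeR adjusted p of 0.0624) and DNAJB11 had -0.13 ± 0.03 (0.0879), whereas DNAJB9 (0.21 ± 0.08) and HERPUD1 (0.12 ± 0.06) had positive values, none of them called. HSPA5 was not called without Poria library 1 or 2 or without Ginseng library 1, with adjusted p up to 0.133.

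Both called chaperone genes hold the endoplasmic reticulum stress element in the bases before their start, and they were the only called genes with a window that did. The element was searched as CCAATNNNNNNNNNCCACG on both strands and was found in 26 of the 35116 promoter windows (0.074%). The HSPA5 stretch (chr9:125241371-125241430, - strand) has 1 match, 66 bases before the start. The HSP90B1 stretch (chr12:103930206-103930349, + strand) has 2 matches, 1 on each strand, which begin 194 and 89 bases before the start of that window. Capitals mark the matches.
HSPA5: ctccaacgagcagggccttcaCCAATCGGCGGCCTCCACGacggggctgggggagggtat
HSP90B1: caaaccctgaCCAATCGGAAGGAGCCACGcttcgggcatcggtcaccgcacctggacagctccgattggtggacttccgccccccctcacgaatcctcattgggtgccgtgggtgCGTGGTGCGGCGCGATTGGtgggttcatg

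The other genes described here were also lower with Poria. DHRS3, which reduces retinaldehyde (ENSG00000162496, chr1:12567910-12617731, - strand), was at 25.7, 27.1 and 26.2 CPM with Poria and 34.9, 35.7 and 32.5 CPM with Ginseng. DHRS2, a related short chain dehydrogenase, was at 5.65, 5.38 and 5.82 CPM with Poria and 7.80, 8.43 and 7.61 CPM with Ginseng. Their log2 fold changes were -0.39 ± 0.06 (edgeR adjusted p of 4.35e-05) and -0.50 ± 0.11 (0.0102). For DHRS2 the Poria libraries lay below all vehicle libraries (6.88 to 8.49 CPM) and below all low dose libraries, which the Ginseng libraries did not. DHRS2 was not called without Poria library 2 or without Ginseng library 2 (edgeR adjusted p up to 0.0778).

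TRIM31, a ubiquitin ligase of intestinal epithelium, was at 168, 164 and 170 CPM with Poria and 212, 225 and 214 CPM with Ginseng, a log2 fold change of -0.37 ± 0.05 (edgeR adjusted p of 3.55e-05). KRT13, a keratin, was at 21.9, 19.7 and 21.2 CPM with Poria and 27.8, 26.0 and 25.8 CPM with Ginseng, and its log2 fold change was -0.34 ± 0.06 (edgeR adjusted p of 0.00104). The Ginseng libraries lay above all vehicle libraries for both, and the differences between doses were called for DHRS3 (-0.45 ± 0.08, edgeR adjusted p of 0.0156), TRIM31 (-0.39 ± 0.08, 0.0179) and KRT13 (-0.43 ± 0.09, 0.0283). GPX3, a secreted glutathione peroxidase, was at 31.6, 32.3 and 31.1 CPM with Poria and 43.5, 39.8 and 37.5 CPM with Ginseng, a log2 fold change of -0.35 ± 0.06 (edgeR adjusted p of 0.00118). MAP1A, a microtubule-associated protein (ENSG00000166963, chr15:43510958-43531620, + strand), was at 5.00, 4.12 and 3.83 CPM with Poria and 7.59, 7.32 and 6.47 CPM with Ginseng. It had the largest negative log2 fold change among the called genes, -0.72 ± 0.13 (edgeR adjusted p of 0.00078). Its Poria libraries lay closer than the Ginseng libraries to vehicle, 3.33 to 3.46 CPM.

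**Figure D4:**
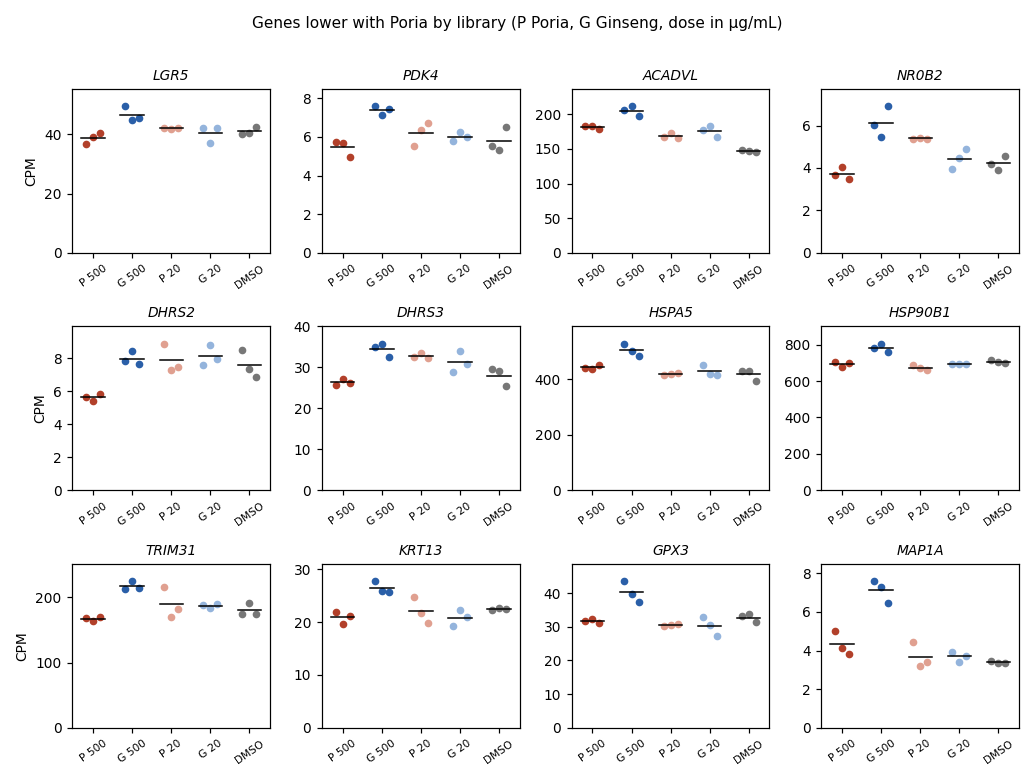
CPM (y axis, from 0) of 12 genes lower with Poria in each library, with groups and mean bars as in the plot of NRF2 genes. The 3 Ginseng points at 500 µg/mL sit above the 3 Poria points in all 12 panels, and for NR0B2 the extracts change places between 500 and 20 µg/mL.

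LGR5, the receptor that marks intestinal stem cells, was at 36.6, 39.1 and 40.4 CPM with Poria and 49.5, 45.1 and 45.5 CPM with Ginseng, and it was the called member among 16 tested Wnt and stem cell genes. LGR5 had a log2 fold change of -0.27 ± 0.06 (edgeR adjusted p of 0.00609), while AXIN2 (0.01 ± 0.04) and ASCL2 (0.10 ± 0.13) were not called. CYP3A5, a drug-metabolising cytochrome, was the called member among 8 tested PXR and CAR targets, with -0.23 ± 0.04 (edgeR adjusted p of 0.00412). SAMD9, an antiviral gene, was the called member among 29 interferon genes, with -0.26 ± 0.06 (edgeR adjusted p of 0.036). By size, the membrane gene SSPN (-0.43), the orphan receptor gene NR6A1 (-0.34), TMC7 (-0.31), the nucleoside transporter gene SLC28A3 (-0.27), the noncoding LINC02086 (-0.32) and the pseudogene ZDHHC8BP (-0.31, uncertain for its likeness to the parent gene) completed the genes named. SSPN overlaps BHLHE41, which lies on the opposite strand and was also lower with Poria (-0.17), and whether the authors' counting used strand is not stated in the labels or the table. LGR5 was not called without Poria library 1 or without Ginseng library 1 (edgeR adjusted p up to 0.0969). CYP3A5, NR6A1, TMC7, LINC02086 and SAMD9 were not called with the 3 libraries that lay apart left out, and SLC28A3 and ZDHHC8BP not after thinning to equal totals, with adjusted p over all alternatives from 0.0652 for TMC7 up to 0.257 for SLC28A3.

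Among genes with the same call, the direction of the change from the low to the high dose differed. The high dose values that chose these genes also enter both ratios, which by itself favours opposite changes in the 2 extracts. Shares over all tested genes were not counted, so the counts below are a description. Comparing mean CPM at 500 µg/mL with that at 20 µg/mL, without a test, 18 of the 45 genes higher with Poria were higher at the high dose in both extracts, 19 were higher with Poria and lower with Ginseng, and 8 were lower in both. The NRF2 genes were of the first kind: AKR1C2 had log2 ratios of high to low dose of 1.38 with Poria and 1.24 with Ginseng, and HMOX1 had 0.82 and 0.33. TRIB3 (0.25 and -0.19) and CDKN1A (0.23 and -0.34) were of the second kind. VGLL1 (-0.12 and -0.93) was of the third, with nearly all of the change in Ginseng. Of the 40 genes lower with Poria, 30 were lower at the high dose with Poria and higher with Ginseng, such as NR0B2 (-0.53 and 0.47). Another 8 were higher in both, such as MAP1A (0.23 and 0.95), and 2 were lower in both. Of the 45 genes higher with Poria, 32 lay above all vehicle libraries in all 3 Poria libraries. This too is a description, because the 45 were chosen for high values with Poria and the share over all tested genes was not counted.

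**Figure D5:**
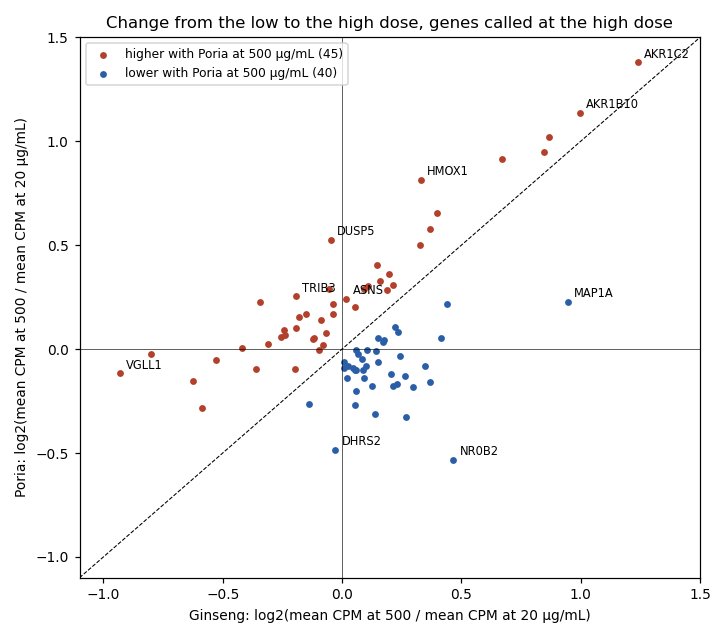
Each point is a gene of the 85 called, placed by the log2 ratio of mean CPM at 500 to that at 20 µg/mL with Ginseng (x axis) and with Poria (y axis), red for the 45 genes higher with Poria and blue for the 40 lower. The NRF2 genes AKR1C2 and AKR1B10 lie at the upper right near the dashed line of equal change, VGLL1 lies far to the left near 0 on the y axis, and NR0B2 lies at the lower right.

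The difference between the high and the low dose comparison, in which a constant difference between the sets cancels, was called for 9 genes (0.0547%), and all 9 are among the 85, 4 with a larger ratio of Poria to Ginseng at the high dose (0.0243%) and 5 with a smaller one (0.0304%). Among the 4 were RAP1GAP, TRIB3 and CDKN1A, and among the 5 were NR0B2, DHRS3, KRT13 and TRIM31. These calls rest on the low dose libraries too: without Ginseng low dose library 1, and in a fit of these 12 libraries alone, 0 genes were called by edgeR, with 673 and 515 under an unadjusted 0.05 and 9 genes called by DESeq2 in the full set. No gene was called at both doses.

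Gene groups of the translation and energy machinery leaned by small amounts, without a call by DESeq2 or by edgeR in the fit of all 57 libraries. In a fit of the 6 high dose libraries alone edgeR called 6 ribosomal protein, 4 oxidative phosphorylation, 2 mitochondrial and 2 metallothionein and zinc genes, and with no filter on low counts 11, 6, 7 and 2, the mitochondrial genes lower with Poria and the others higher. At an unadjusted 0.05, edgeR gave 15 of 30 ribosomal protein genes, 10 of 30 nuclear oxidative phosphorylation genes, 0 of 13 mitochondrial genes and 3 of 6 metallothionein and zinc genes. All 30 cytosolic ribosomal protein genes had a positive log2 fold change, with a median of 0.12 at the high dose and 0.08 at the low dose, and their summed level was 26683 to 27623 CPM with Poria and 24013 to 25394 CPM with Ginseng. Of 30 nuclear genes of oxidative phosphorylation 28 were positive, with a median of 0.12 and 0.08 at the low dose. Of the 13 protein genes of mitochondrial DNA 10 were negative, with a median of -0.21, in step with the mitochondrial share given above. The list of metallothioneins, small metal-binding proteins, and the zinc exporter gene SLC30A1 had 6 of 6 positive values with a median of 0.42. MT1E had means of 92.1 CPM with Poria and 66.7 CPM with Ginseng and was not called (edgeR adjusted p of 0.23). In the lists of heat shock, NF-kB, MHC class I, mucin, enterocyte, FOXO, LXR, fatty acid synthesis, tRNA synthetase, EGFR, glucocorticoid receptor and ribosome biogenesis genes edgeR in the fit of all 57 libraries and DESeq2 called no member, the other alternatives called 0 to 3 members of each, 0 to 5 members of each were under an unadjusted 0.05, and the list medians lay between -0.08 and 0.05.

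The calls were also set against the measures that differed between the groups. With all libraries thinned to 19.4 M counts, 65 genes were called, of which 63 were among the 85. With the mitochondrial share as a covariate 86 were called and 76 were shared. With the 3 libraries that lay apart left out 43 were called and 39 shared, and leaving out single high dose libraries gave 41 to 66 calls, with the fewest (41) without Poria library 2, Poria library 3 or Ginseng library 3. The part of depth, of the mitochondrial share and of the libraries that lay apart in these differences was not tested beyond these values.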

How the data were processed

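RNA from HT29 cells was sequenced from directional mRNA libraries, per the labels' protocols. The authors deposited expected counts per gene, estimated with RSEM 1.3.3 after FastQC 0.11.9, Trim Galore 0.6.5 and STAR 2.7.3a on hg38, per the submitters' processing notes. No source used here names the gene annotation. Between 8.12% and 9.78% of values per library were not whole and were rounded. No entry lacks a gene, and 213 other columns were not used here.

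Groups came from the labels. All 19 groups of 3 libraries (57 libraries, 19.4 to 29.6 M counts) entered 1 fit in edgeR 4.0.16 (R 4.3.3) with TMM scaling, filterByExpr (16445 genes kept), the quasi-likelihood F test (38 residual degrees of freedom) and Benjamini-Hochberg adjustment within each of 3 contrasts: Poria against Ginseng at 500 µg/mL, the same at 20 µg/mL, and the difference of both. The scripts were tested on simulated data. Within groups, library pairs had r between 0.987 and 0.993 and differed by more than sampling noise. Depth limits low genes most: at a few CPM, 1 library can decide a call.

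Of 60675 identifiers 56558 had a symbol in the table of names supplied, with coordinates from GENCODE release 29 (GRCh38) and promoters from RefSeq (GRCh38.p14). Genes were named by rule: the 15 largest called log2 fold changes in each direction with a symbol, at least 5 CPM in the higher group and no overlap between libraries, up to 10 in each direction called in the difference between doses, and up to 4 called members of each of 35 gene lists. Of 697 list entries 695 matched. Some genes that the rule would name stay in the counts and list medians but are not reported here. The groups compared, the lists and the rule were chosen with earlier results of these data known. Alternatives were RLE factors, no filter, DESeq2 1.42.0, a fit of the compared libraries alone, a replicate block, the mitochondrial share as covariate and each library left out. Thinning and leaving out the 3 libraries that lay apart were added after seeing the data.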

Additional observations from a re-analysis of the deposited data

Results flagged for a closer look

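For 9 genes the difference between Poria and Ginseng was itself different at 500 and at 20 µg/mL (edgeR quasi-likelihood test of the difference of the log2 fold changes, adjusted p below 0.05), and the 7 given here had adjusted p between 0.0156 and 0.0422. NR0B2, which encodes the bile acid feedback repressor SHP, had a difference of -1.0 between the doses, and its order of extracts turned round. DHRS3, of retinoid metabolism, had -0.45, the keratin gene KRT13 had -0.43 and the ubiquitin ligase gene TRIM31 had -0.39. In the other direction, RAP1GAP had 0.33, the pseudokinase gene TRIB3 0.45 and the cell cycle inhibitor CDKN1A 0.57. Of 21 alternatives, the call was kept in 19 for DHRS3, 15 for NR0B2, 12 each for RAP1GAP, TRIB3 and TRIM31 and 10 each for CDKN1A and KRT13.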

How the results depend on the processing

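All 85 genes called between the extracts at 500 µg/mL kept their sign in all 14 alternatives, none reversed, and 25 stayed called in all of them. Against 85 calls, the count was 468 with no filter on low counts (74 shared, 66.5% higher with Poria in place of 52.9%), 143 in a fit of the 6 libraries alone (53 shared, 66.4% higher), 158 with the replicate number as a block (all 85 shared), 122 with DESeq2 (83 shared, 44.3% higher), 41 to 66 without single libraries and 43 with the 3 libraries that lay apart left out. The cause was not tested. At the low dose, against 0 calls, no filter gave 175, DESeq2 gave 1, and leaving out single libraries gave 0 to 2. The difference between doses had 9 calls, 127 with no filter, 0 in a fit of the 12 libraries alone, 6 after thinning, 2 with the 3 libraries left out, 12 and 13 with the replicate block over all sets or within a set, and 0 to 8 without single libraries, with 2 without Poria high 3, Ginseng high 3 or Poria low 1 and 0 without Ginseng low 1. Whether replicate numbers pair the samples is not decided by these values. Same-numbered libraries deviated together by r of 0.01 to 0.04 at the high dose and -0.15 to 0.12 at the low dose. All 6 high dose libraries correlated best with their own number, and 2 of 6 at the low dose. List medians moved beyond their spread between libraries in 18 of 490 comparisons.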

Other observations

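Several called genes outside the naming rule are given here, chosen after their values were seen, as values without a test of their own grouping. Among genes lower with Poria were 3 that encode adhesion proteins. ITGA6, which encodes an integrin of the basement membrane, was at 538, 517 and 523 CPM with Poria and 602, 586 and 604 CPM with Ginseng. ITGA2, a collagen receptor, was at 151, 151 and 146 CPM against 172, 166 and 175 CPM, and DSG2, a desmosomal cadherin, at 126, 127 and 125 CPM against 139, 138 and 145 CPM. Vehicle lay near Ginseng for ITGA6 (570 to 589 CPM) and above or near it for ITGA2 (171 to 182 CPM). For DSG2 the vehicle libraries (128 to 134 CPM) lay between those of the 2 extracts. AQP3, a water and glycerol channel, and ABCG2, a drug exporter, were also lower with Poria, by log2 fold changes of -0.24 ± 0.05 and -0.19 ± 0.05. Of the 14 alternatives, AQP3 was called in all 14, ITGA6 in 9, DSG2 and ABCG2 in 7 each and ITGA2 in 6. ITGA2 was not called without any 1 of the 6 high dose libraries, ITGA6 without Poria library 2 or 3 or Ginseng library 1 or 3, DSG2 without any Poria library or Ginseng library 3, and ABCG2 without any 1 high dose library other than Poria library 2. The adjusted p reached 0.259 for ABCG2.

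Among genes higher with Poria were enzymes outside the fixed lists. NAMPT, which limits NAD synthesis from nicotinamide, was at 197, 196 and 204 CPM with Poria and 179, 181 and 170 CPM with Ginseng. ALAS1, the first enzyme of haem synthesis, was at 62.5, 61.0 and 58.3 CPM against 51.9, 53.7 and 51.0 CPM. ALDH1A1, a retinaldehyde dehydrogenase, was at 1040, 1008 and 1065 CPM against 940, 923 and 933 CPM, and was above vehicle (730 to 829 CPM) in both groups. For HKDC1, a hexokinase-like gene, the Poria libraries were at 36.5, 36.4 and 36.4 CPM and the Ginseng libraries at 29.1, 33.4 and 31.2 CPM. All of these were called at the high dose only. Of the 14 alternatives, the call was kept in 10 for NAMPT, 8 for ALAS1, 7 for ALDH1A1 and 5 for HKDC1. Without Poria library 3 or without Ginseng library 3, NAMPT was not called. ALAS1 was not called without Poria library 1 or 2 or Ginseng library 1 or 3, and ALDH1A1 was not called without any 1 high dose library other than Poria library 2. HKDC1 was not called without any 1 of 5 high dose libraries (all but Ginseng library 2), with edgeR adjusted p up to 0.225.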
